A study of Mus musculus with 6 samples.

Results

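Described here are 10 genes of BMP and TGF-beta signalling in liver vessels, taken by their symbols: the ligand genes Bmp2, Bmp6 and Tgfb1, the receptor genes Tgfbr2, Bmpr2, Acvrl1 and Eng, and the inhibitor genes Smad6, Smad7 and Bambi. Each symbol was found once among the 22027 genes of the deposited table, and all 10 passed the filter on low values, a mean of at least 10. The data are RNA-seq of GFP-positive cells sorted from the livers of IL7-GFP reporter mice, which the labels call liver lymphatic endothelial cells. The groups are a sham operation (3 libraries) and ischemia-reperfusion (I/R), in which the blood supply is stopped and then restored, at day 3 (3 libraries), and both carry the reporter. The reporter construct, the sort gates, the age and strain of the mice, the time of the sham samples and the number of mice per library are not stated, so the p-values speak only of the variation among these libraries, which may be technical.

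BMPs and TGF-betas are secreted dimers that bring type I and type II receptor kinases together on the cell surface. The type I receptor then phosphorylates receptor-regulated Smads, which enter the nucleus with Smad4. In the liver, BMP2 and BMP6 made by endothelial cells act on hepatocytes to switch on hepcidin, the iron hormone encoded by Hamp, while endothelial cells themselves sense circulating BMPs through ALK1, the product of Acvrl1, and its co-receptor endoglin, the product of Eng. Smad6, Smad7 and the pseudoreceptor BAMBI dampen the signal, and the genes of the inhibitory Smads are themselves switched on by it.

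Values are the authors' normalised counts, from libraries with 6297308 to 17086746 recovered counts. Beside lymphatic markers, those of other liver cells were abundant. The lymphatic gene Mmrn1 was at 2790 to 10325 in sham and 9663 to 18100 in I/R libraries, and none of 10 lymphatic markers was at 0 in all libraries. The Kupffer cell markers Cd5l and Clec4f, of the resident liver macrophages, were at 33457 to 62020 and 32857 to 58478 over the 6 libraries, and the hepatocyte gene Alb at 26138 to 43365. The summed level of 10 lymphatic markers was 9306 to 32561 in sham and 29668 to 48506 in I/R libraries, with the lowest sum in sham library 3. That of 12 Kupffer cell and macrophage markers was 236588 to 274681 in sham and 164822 to 275937 in I/R libraries. Monocyte and neutrophil markers (9 genes) summed to 1696 to 2349 in sham and 3083 to 4162 in I/R libraries, with no overlap. Of the 8 tested, 6 had a positive and 2 a negative fold change, and 4 (50%) had groups that did not overlap, against 9.59% over all tested genes. The list was chosen with earlier results of these data known. Plac8, with the highest mean of the list, had log2 fold changes of -0.43 to 0.13 over the fits that each left out 1 library. F13a1, the factor XIII gene of monocytes, was past the threshold (log2 fold change 2.18, SE 0.28, limma adjusted p = 0.0416). Of the 6 fits that each left out 1 library, F13a1 passed in 1, that without sham library 1. Of the 9 monocyte and neutrophil genes only the defining neutrophil marker Ly6g was at 0 in all 6 libraries. Of 7 lymphocyte markers only Cd3e and Nkg7 were at 0 in all 6 libraries. The lymphocyte markers summed to at most 25.1 in sham and 33.5 in I/R libraries. Whether neutrophils or lymphocytes were present was not tested. In such bulk libraries fewer cells of a type and less RNA per cell cannot be told apart, and which cells carried each gene below was not tested.

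At day 3 after I/R none of the 10 genes differed from sham past the threshold (limma adjusted p of 0.985 to 0.998), and for 0 of 10 were the groups free of overlap. The threshold was an adjusted p of 0.05. Over all 13434 tested genes 0.0298% passed it, all higher in I/R (0.0% lower). An unadjusted p under 0.05 was found for 4.44% of them (2.96% higher and 1.48% lower in I/R) and for 0 of the 10. Groups that did not overlap were found for 9.59% (5.11% higher and 4.48% lower). The log2 fold changes, I/R minus sham, ran from -0.32 for Bmp6 to 0.39 for Eng, with 5 positive and 5 negative and a median of -0.015, against 0.017 over all tested genes. Leaving out I/R library 2 gave these 10 a median of 0.18, and leaving out I/R library 3 gave -0.18. Exact permutation tests of 3 against 3 libraries, which cannot go below 0.1, gave two-sided p of 0.2 to 1. A p that misses the threshold does not show that the groups were alike, and the 95% intervals of the fold changes say how large a difference these libraries leave possible. That of Tgfb1 ran from 0.696 to 1.32 times the sham level and that of Acvrl1 from 0.694 to 1.29, while that of Smad6 ran from 0.479 to 1.40 and that of Bmp2 from 0.592 to 1.76.

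**Figure D1:**
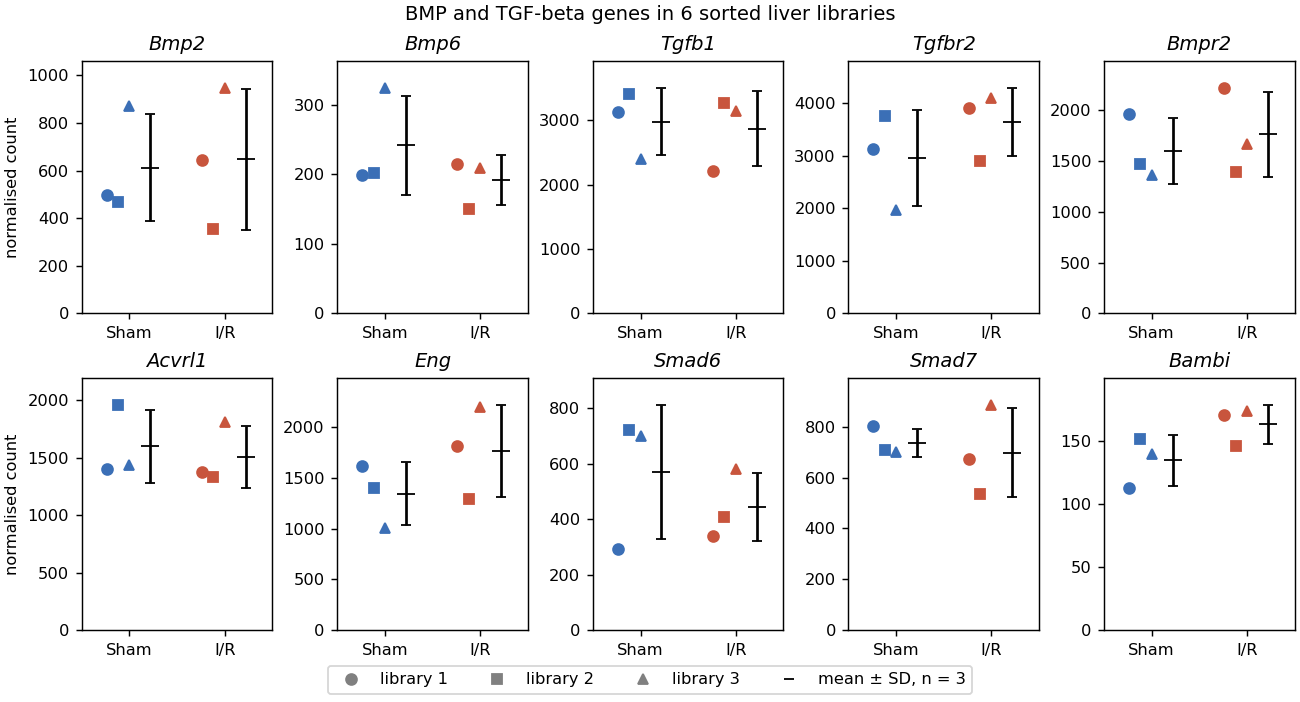
Normalised counts of the 10 genes in each library (y axis, starting at 0), with sham libraries in blue, I/R libraries in red, marker shape for the library number, and the mean ± SD of 3 libraries as a black bar. The groups overlap in every panel.

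Levels between genes were compared per kilobase of exon (the union of all annotated exons). Tgfb1 stood highest at 579.8 ± 98.2 normalised counts per kb (SD, n = 6 libraries), which placed it above 95.5% of the 18798 genes with a level per kb above 0. Tgfbr2, Eng and Acvrl1 followed at 402.7 ± 97.4, 384.5 ± 103.4 and 363.7 ± 62.3 per kb. Bmp2 at 177.0 ± 66.4, Smad7 at 158.8 ± 26.4 and Smad6 at 158.0 ± 57.8 formed a middle group. Bmpr2 at 93.4 ± 19.2, Bmp6 at 55.5 ± 14.8 and Bambi at 29.3 ± 4.41 came last, and Bambi still lay above 54.6% of genes.

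Of the 9 neighbouring pairs in this order, 2 kept it in all 6 libraries. Acvrl1 lay 2.16 times above Bmp2 per kb on the geometric mean and Bmp6 lay 1.86 times above Bambi, each with the smallest p the exact sign-flip permutation test can give (two-sided p = 0.031, adjusted p = 0.141 over the 9 pairs). Tgfbr2 against Eng, Bmp2 against Smad7 and Smad7 against Smad6 held their order in 3 of 6 libraries, and Eng against Acvrl1 in 4. Which of these neighbours lies higher was not settled. The order itself was set by the means of these same libraries, and no pair had an adjusted p below 0.141 (sign-flip permutation test). Tgfb1 against Tgfbr2 and Bmpr2 against Bmp6 kept it in 5 of 6 (exact p = 0.0625 for both) and Smad6 against Bmpr2 in 4 of 6 (exact p = 0.125). Per kb of the longest transcript in place of the exon union, Tgfb1 stood at 1136 and Tgfbr2 at 407.4, and Tgfbr2 then came behind Eng and Acvrl1. By that length 3 of 9 neighbouring pairs kept their order, Tgfb1 above Eng, Bmpr2 above Bmp6 and Bmp6 above Bambi. Without I/R library 1, 4 of the 9 pairs kept their order in all remaining libraries.

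**Figure D2:**
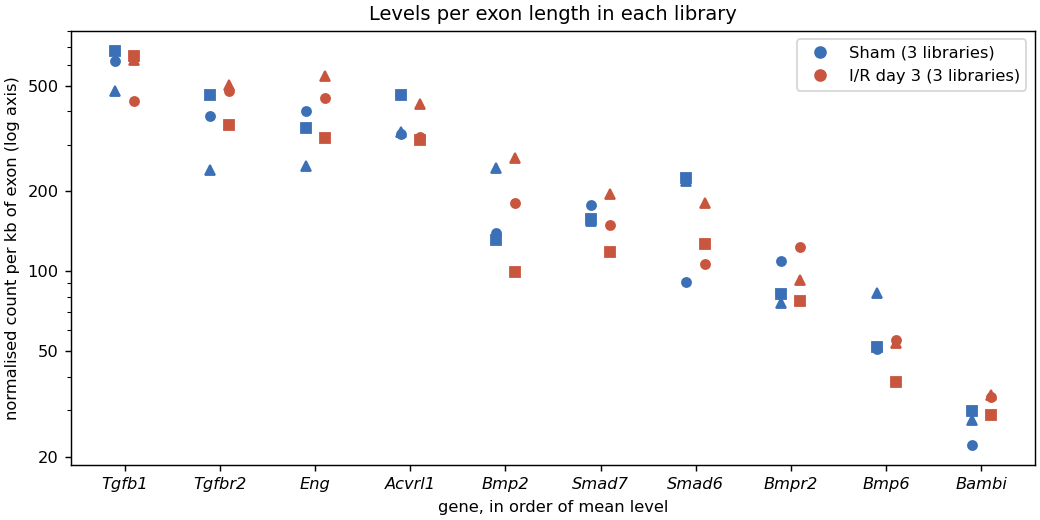
Normalised counts per kb of exon (log axis) for the 10 genes in order of their mean, 1 point per library, sham in blue and I/R in red. Tgfb1 at a mean of 579.8 is highest and Bambi at 29.3 is lowest. The ranges of all neighbours overlap except those of Acvrl1 and Bmp2 and those of Bmp6 and Bambi.

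Among the ligand genes, Bmp2 (chromosome 2, 133552159 to 133562885, plus strand, GRCm38) encodes a BMP that liver sinusoidal endothelium makes in amounts that matter for hepcidin. It was at 497.0, 466.3 and 869.9 normalised counts in sham libraries 1, 2 and 3 and at 642.1, 353.1 and 945.9 in I/R libraries 1, 2 and 3. Sham library 3 and I/R library 3 were high and I/R library 2 was the lowest, a 2.68-fold range, so the groups overlapped fully. The group means were 611.1 ± 224.7 and 647.0 ± 296.4 (SD, n = 3 each), and limma gave a log2 difference of 0.030 (SE 0.36, adjusted p = 0.998). Its sign turned without sham library 1 (-0.089) or 2 (-0.14) and without I/R library 1 (-0.021) or 3 (-0.30). It was 0.31 without sham library 3 and 0.41 without I/R library 2.

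Bmp6 (chromosome 13, 38345107 to 38500302, plus strand), the iron-responsive partner of Bmp2 in liver endothelium, was at 198.8, 202.2 and 323.8 in sham and at 214.5, 149.8 and 209.4 in I/R libraries. Sham library 3 was the highest and I/R library 2 again the lowest, while I/R library 3, the highest for Bmp2, was not high for Bmp6. The log2 fold change was -0.32 (SE 0.29, limma adjusted p = 0.985), and -0.086 without sham library 3 or -0.44 without sham library 1. Per kb, Bmp2 exceeded Bmp6 in all 6 libraries, by 2.53 to 2.95 times in sham and 2.59 to 4.96 times in I/R libraries.

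Tgfb1 (chromosome 7, 25687002 to 25705077, plus strand) encodes the TGF-beta made by many immune and endothelial cells. It was at 3129, 3406 and 2402 in sham and 2203, 3262 and 3139 in I/R libraries, so that 4 libraries lay close together and sham library 3 and I/R library 1 were low. The means were 2979 ± 518 and 2868 ± 579 (SD, n = 3 each), and limma gave a log2 difference of -0.061 (SE 0.21, adjusted p = 0.995). The sign turned without sham library 2 (0.044) or I/R library 1 (0.12), and with quantile normalisation (0.027).

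The type II receptor genes are Tgfbr2 (chromosome 9, 116084293 to 116175360, minus strand), whose kinase binds TGF-beta, and Bmpr2 (chromosome 1, 59763400 to 59879014, plus strand), its counterpart for BMPs. Tgfbr2 was at 3134, 3760 and 1972 in sham and at 3913, 2902 and 4101 in I/R libraries, with sham library 3 alone far below the rest. Its log2 fold change was 0.33 (SE 0.25, limma adjusted p = 0.985), and 0.068 without sham library 3 or 0.53 without sham library 2. Bmpr2 was at 1965, 1471 and 1361 in sham and at 2215, 1394 and 1670 in I/R libraries. Library 1 was the highest of either group for Bmpr2, and its log2 fold change of 0.13 (SE 0.22, adjusted p = 0.987) turned to -0.049 without I/R library 1.

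Acvrl1 (chromosome 15, 101128522 to 101145336, plus strand), the endothelial type I receptor gene, had the narrowest range of the 10, 1.47-fold. It was at 1398, 1960 and 1433 in sham and 1371, 1333 and 1813 in I/R libraries, with 1 high library in each group. The log2 fold change was -0.081 (SE 0.20, limma adjusted p = 0.995), turning to 0.075 without sham library 2. Eng (chromosome 2, 32646595 to 32682669, plus strand) was at 1625, 1400 and 1012 in sham and 1814, 1289 and 2199 in I/R libraries. Here I/R libraries 1 and 3 lay above all sham libraries and I/R library 2 below sham libraries 1 and 2. The log2 fold change was 0.39 (SE 0.24, limma adjusted p = 0.985). Leaving out sham library 3 gave 0.19 and I/R library 3 gave 0.21, while leaving out I/R library 2 gave 0.60.

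For Tgfbr2, Eng and Bmpr2 the lowest library was sham library 3. That library also had the lowest sum of lymphatic markers (9306, against 25854 and 32561 in sham libraries 1 and 2) and of pan-endothelial markers (17030, against 19540 to 29819 elsewhere). Bmp6 was instead highest there, at 323.8, and Bmp2 at 869.9 was above all but I/R library 3. Among the I/R libraries, library 3 was highest and library 2 lowest for Tgfbr2, Eng and the pan-endothelial sum. This order was not particular to them. It also held for Bmp2, Acvrl1, Smad7 and Bambi and for the sums of sinusoidal and blood vascular markers. It did not hold for Bmp6, Tgfb1, Bmpr2 and Smad6. Per kb, the ratio of Tgfbr2 to Eng stayed between 0.922 and 1.33 over the 6 libraries while each gene alone moved 2.08-fold and 2.17-fold. The part of the endothelial share of each library in these levels was not tested. When every library was scaled to its pan-endothelial markers, which moves the median of all genes to -0.46 on the log2 scale, the log2 fold changes were -0.14 for Tgfbr2 and -0.085 for Eng, and all 10 were negative, from -0.79 for Bmp6 upwards.

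Smad6 (chromosome 9, 63953076 to 64022059, minus strand) encodes the inhibitory Smad that acts mainly on BMP receptors, and the profile of Smad6 is set here beside that of Id3, a direct BMP target gene encoding a dominant negative helix-loop-helix protein. The windows below run from 250 bases before to 30 bases after the RefSeq start site (GRCm38.p6) and are shown because these 2 genes had the closest profiles over the libraries. Capitals mark GTCTAGAC, the palindromic Smad binding element, and the motif CAGAC or its reverse complement GTCTG. The palindrome holds neither CAGAC nor GTCTG, but it does hold their shorter cores AGAC and GTCT.
Smad6, chr9:64022030-64022309, minus strand: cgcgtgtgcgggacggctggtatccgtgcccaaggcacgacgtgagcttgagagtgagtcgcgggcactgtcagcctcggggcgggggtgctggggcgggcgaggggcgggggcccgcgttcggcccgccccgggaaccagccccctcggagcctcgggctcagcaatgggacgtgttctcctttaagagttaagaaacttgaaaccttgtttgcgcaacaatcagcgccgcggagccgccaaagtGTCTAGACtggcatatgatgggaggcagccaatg
Id3, chr4:136143572-136143851, plus strand: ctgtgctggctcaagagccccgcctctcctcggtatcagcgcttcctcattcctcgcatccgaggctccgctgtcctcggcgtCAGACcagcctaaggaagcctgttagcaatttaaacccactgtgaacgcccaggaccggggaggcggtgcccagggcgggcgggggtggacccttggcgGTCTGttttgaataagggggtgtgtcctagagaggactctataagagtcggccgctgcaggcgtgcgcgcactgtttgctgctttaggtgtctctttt

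The Smad6 window held GTCTAGAC once, with its first base at position -4 from the start site, and 0.192% of 32851 RefSeq windows of the same length held it on either strand. The Id3 window held CAGAC or GTCTG at 2 places, with first bases at positions -167 and -68, and 46.8% of windows held at least 1. GGCGCC, a GC-rich motif of BMP-responsive elements, was in neither window and in 10.9% of all. These matches describe letters in the windows and not bound sites. Of the 10 genes, 6 had a RefSeq window.

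Smad6 was at 291.7, 720.4 and 699.1 in sham and at 340.8, 407.3 and 579.2 in I/R libraries, from 179 to 1083 recovered counts. Sham library 1 and I/R library 1 were the lowest of the 6 and sham libraries 2 and 3 the highest. The means were 570.4 ± 241.6 and 442.4 ± 123.0 (SD, n = 3 each), and limma gave a log2 difference of -0.29 (SE 0.35, adjusted p = 0.985), which was -0.72 without sham library 1, -0.50 without I/R library 3, -0.12 without I/R library 1 and under 0.1 in size without sham library 2 (-0.065) or 3 (-0.087).

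Smad6 and Bmp2 varied most over the 6 libraries (SD of log2 values 0.55 for both). Among 10836 other tested genes with a mean of at least 50, the gene closest to Smad6 was Id3. Its root mean square difference of centred log2 values was 0.064 over the 6 libraries, against a median of 0.586 over all these genes. Id3 was picked as the smallest of these differences, so lying below the median follows from the search and tests nothing. Id3 was at 1582, 4358 and 4248 in sham and 2086, 2297 and 3426 in I/R libraries, which is the same order of libraries as for Smad6. Per kb, Id3 stood 9.71 to 10.95 times above Smad6 in every library, although Smad6 alone varied 2.47-fold. Mfsd7b and Kcna2 came next at 0.121 and 0.129. Id1, a further BMP target named after its values were seen, ranked 105 at 0.235, with 340.6, 842.1 and 763.6 in sham and 553.8, 661.2 and 688.2 in I/R libraries. The libraries low in Smad6 and Id3, library 1 of each group, were also the shallowest, with 6638130 and 6297308 recovered counts, and were the lowest for the macrophage gene Marco at 3849 and 4199 against 6792 to 11221 elsewhere. The part of depth and of the cell mixture in this profile was not tested.

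The genes closest to Bmp2 were Flt1, encoding a VEGF receptor of blood endothelium, at a root mean square difference of 0.136, then Echdc3 at 0.151 and Ehd3, a sinusoidal endothelial marker, at 0.156. Flt1 was at 348.7, 240.8 and 521.0 in sham and 403.2, 199.7 and 547.3 in I/R libraries. Like Bmp2 and unlike Tgfbr2 and Eng, Flt1 and Ehd3 were high in sham library 3, where Ehd3 stood at 1130 against 407.3 to 1035 elsewhere. Ehd3 is 1 of 12 sinusoidal endothelial markers, whose sum was lowest in that library (26730, against 28017 to 39233 elsewhere). Their mean log2 value there was 10.39, against 10.16 to 10.88 elsewhere.

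**Figure D3:**
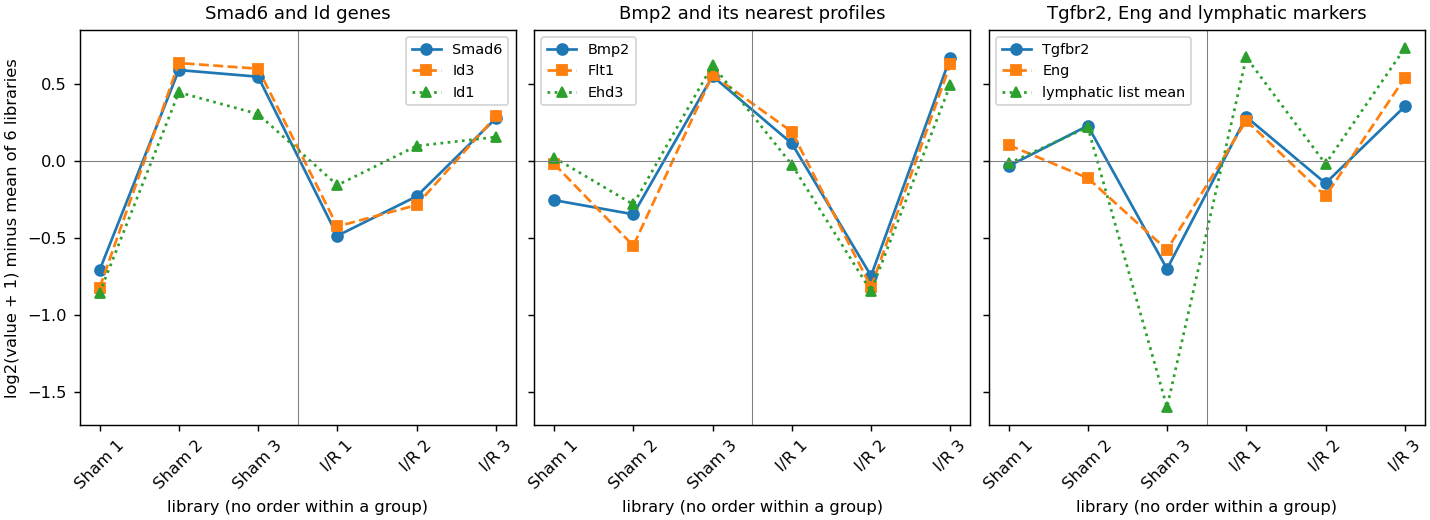
Centred log2 values (log2(value + 1) minus its mean over the 6 libraries, y axis) by library, with lines that only guide the eye, for Smad6 with Id3 and Id1, for Bmp2 with Flt1 and Ehd3, and for Tgfbr2 and Eng with the mean of the lymphatic markers. Smad6 and Id3 are low in library 1 of each group, Bmp2 is lowest in I/R library 2, and Tgfbr2, Eng and the lymphatic mean are lowest in sham library 3.

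Smad7, on chromosome 18, encodes the inhibitory Smad that acts on both TGF-beta and BMP receptors. It was steadier than Smad6 across sham libraries, at 801.7, 708.4 and 701.5, and was at 674.0, 535.8 and 886.7 in I/R libraries, the last of which was the highest of all. Its log2 fold change was -0.10 (SE 0.22, limma adjusted p = 0.992), turning to 0.071 without I/R library 2. The ratio of Smad6 to Smad7 per kb ran from 0.513 in sham library 1 to 1.43 in sham library 2, and from 0.713 to 1.07 in I/R libraries.

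Bambi, also on chromosome 18, encodes a receptor-like protein without a kinase that blocks receptor complexes. It was at 112.4, 151.7 and 139.8 in sham and 170.4, 145.5 and 173.6 in I/R libraries, from 69 to 239 recovered counts. I/R libraries 1 and 3 lay above all sham libraries and I/R library 2 below sham library 2. The means were 134.6 ± 20.1 and 163.2 ± 15.4 (SD, n = 3 each). The log2 difference was 0.28 (SE 0.28, limma adjusted p = 0.985), and 0.16 without sham library 1 or 0.37 without sham library 2.

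The surrounding pathway was read from 6 lists holding 125 other genes found in the table, of which 89 were tested. Of these 0 rose and 0 fell past the threshold, and 58 had a positive fold change (65.2%, against 52.1% over all genes). An unadjusted p under 0.05 was found for 11 with a positive and 1 with a negative fold change, which is 13.5% of those tested, against 4.44% over all genes. The lists were chosen with earlier results of these data known, so this share is not independent of them. Groups did not overlap for 8, which is 8.99%, against 9.59% over all genes. The median log2 fold change was 0.18, against 0.017 over all genes, and 0.016 without sham library 3, 0.081 without I/R library 3, 0.28 without sham library 1 and 0.025 in edgeR. Fold changes were also positive for 10 of 10 lymphatic markers (median 0.98) and 12 of 15 pan-endothelial markers (median 0.61), and their part in these counts was not tested. Scaled to the pan-endothelial markers, which moves the median of all genes to -0.46, the pathway genes had a median of -0.29 with 31 of 89 positive. The medians of the single lists then ran from -0.74 for other receptors to 0.13 for extracellular modulators. The 125 genes are counted without repeats. A gene in more than 1 list, such as Thbs1 in extracellular modulators and TGF-beta targets, counts in each, so the single lists are not separate.

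Among 29 other ligand genes 15 were tested and 0 passed, with a median of 0.32 that became 0.13 when sham library 3 was left out, 0.081 when I/R library 3 was, and 0.083 in edgeR. By mean normalised count, not corrected for length, the leading ones were Gdf15, a stress-induced cytokine gene, Tgfb3 and Tgfb2. Gdf15 was at 2378 to 3698 in sham and 2056 to 3914 in I/R libraries. Gdf2, encoding the ALK1 ligand BMP9, was at 16.3 to 50.6 and 32.0 to 61.5, and Bmp10 was at 0 in 3 libraries. Gdf2 and Bmp10 were named after their values were seen. Gdf3 had the smallest p of the list, at 6.52, 3.99 and 0 in sham and 27.4, 35.3 and 28.0 in I/R libraries (log2 fold change 3.21, SE 1.19, unadjusted p = 0.0212, limma adjusted p = 0.985). These are low values, with a floor of 3 counts at 1.83 to 4.89, and the change was 1.60 with a pseudocount of 10. Inhba, encoding the activin A subunit, was at 71.7 to 244.4 and 96.8 to 318.4 (0.75, SE 0.53), and at 0.35 to 1.32 over the fits that each left out 1 library, lowest without sham library 3.

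In the list of other receptor genes 11 of 17 were tested and 0 passed, with a median of -0.27. The median was -0.13 without I/R library 3, -0.14 without I/R library 2, -0.16 without sham library 3 and -0.031 with no filter on low values. Tgfbr1, the type I partner of Tgfbr2, was at 990.4 to 1238 in sham and 1039 to 1461 in I/R libraries (log2 fold change 0.21, SE 0.19, and 0.11 without I/R library 2 or 0.35 without I/R library 3). Bmpr1a, a type I BMP receptor gene, was at 266.7 to 430.2 and 192.3 to 324.1 (-0.35, SE 0.28), and leaving out I/R library 3 gave -0.13 and sham library 3 gave -0.16. The co-receptor gene Tgfbr3, encoding betaglycan, was at 459.5, 482.2 and 277.2 in sham and 736.4, 432.3 and 803.4 in I/R libraries. For it limma gave a log2 difference of 0.68 (SE 0.29, adjusted p = 0.985), and 0.43 without sham library 3 or 0.96 without I/R library 2. Like Tgfbr2 and Eng, Tgfbr3 was lowest in sham library 3.

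All 14 genes of other Smads and their regulators were tested and 0 passed, with a median of -0.084. Leaving out sham library 1 gave -0.0019, I/R library 1 gave 0.0080 and leaving out both gave 0.084. Skil, Tgif1 and Ski, nuclear repressors of Smad signalling, had the highest mean normalised counts, not corrected for length, at 3188, 2006 and 1305 over the 6 libraries. Their log2 fold changes were -0.11, -0.16 and -0.22. Skil moved to -0.011 when I/R library 3 was left out, and Ski turned to 0.036 when I/R library 2 was. Smad2, a receptor-regulated Smad of the TGF-beta branch, was lower in every I/R than in every sham library, at 756.1, 582.0 and 589.1 against 448.8, 460.9 and 416.5 (-0.53, SE 0.19, limma adjusted p = 0.985). Smurf1, a ubiquitin ligase gene of the pathway, had 0.33 (SE 0.29), and -0.0022 when sham library 3 was left out.

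The list of extracellular modulators, which release, store or trap the ligands, had 19 of 29 genes tested, 0 past the threshold, and 16 of the 19 with a positive fold change (median 0.60). Scaled to pan-endothelial markers 12 of 19 were positive (median 0.13). Leaving out sham library 3 gave a median of 0.19, and leaving out sham library 1 gave 1.03. Thbs1, encoding thrombospondin 1, which can free TGF-beta from its latent complex, stood apart most, at 3562, 2715 and 1844 in sham and 8805, 6696 and 7195 in I/R libraries. Its log2 fold change was 1.52 (SE 0.24, limma adjusted p = 0.115). Thbs1 passed without sham library 1 (1.75, adjusted p = 0.0167), in limma with sample weights (1.55, 0.0348) and in DESeq2 on recovered counts (1.48, 3.59e-06), and had an adjusted p of 0.201 in edgeR and 0.985 in limma without the trend. The monocyte and neutrophil markers separated the groups in the same direction (summed level 1696 to 2349 in sham and 3083 to 4162 in I/R libraries). That list was chosen with earlier results of these data known and holds F13a1, which passed the threshold here, so its sum is not independent of these results. Pf4, from the platelet and erythroid list, was at 443.2, 106.4 and 109.9 in sham and 482.3, 941.2 and 442.2 in I/R libraries (1.75, SE 0.51, limma adjusted p = 0.912). It passed without sham library 1 (2.43, adjusted p = 0.0307). Of the 5 tested genes of that list 2 had a positive and 3 a negative fold change (median -0.033), and the platelet genes Ppbp and Gp9 were at 0 to 23.9. The part of the cell mixture in the Thbs1 values was not tested.

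Furin, the protease gene that cuts BMP and TGF-beta precursors, was at 2946, 2655 and 2096 in sham and 3086, 3872 and 3515 in I/R libraries, with no overlap (0.45, SE 0.18, limma adjusted p = 0.985), and had -0.020 when scaled to pan-endothelial markers. Itgav, a subunit of integrins that activate latent TGF-beta, had 0.48 (SE 0.24). Tll1, a protease gene that frees BMPs from chordin, was at 21.2, 129.7 and 25.1 in sham and 319.5, 123.0 and 230.4 in I/R libraries (2.31, SE 0.65, adjusted p = 0.825).

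Of 19 BMP target genes 13 were tested, and 0 passed. Id2, Id3 and Cdkn1a had the highest mean normalised counts, not corrected for length, and log2 fold changes of 0.01, -0.28 and 0.02. Leaving out sham library 1 moved Id3 to -0.76 and sham library 2 to -0.029. The median of the list was 0.033, and negative without sham library 3 (-0.013) or I/R library 3 (-0.028). The notch and BMP target Hey1 was at 83.1, 150.3 and 58.6 in sham and 171.9, 175.9 and 238.2 in I/R libraries, with no overlap (1.09, SE 0.38, limma adjusted p = 0.985). Hamp, the hepatocyte gene for hepcidin, was at 153.2, 87.8 and 81.3 in sham and 203.9, 223.4 and 169.7 in I/R libraries, again with no overlap (0.93, SE 0.33, adjusted p = 0.985). The hepatocyte markers, 9 genes with Hamp among them, had 5 positive and 4 negative fold changes (median 0.037) and summed to 40803 to 69590 in sham and 43282 to 60509 in I/R libraries. Their part in the Hamp values was not tested.

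The TGF-beta target list had all 23 genes tested, 0 past the threshold and 15 with a positive fold change (median 0.36). The median was -0.043 without sham library 3, 0.096 without sham library 2, 0.00 in edgeR and 0.93 without sham library 1. Fn1, the fibronectin gene, was at 3168, 3492 and 2832 in sham and 6602, 4506 and 7207 in I/R libraries (0.92, SE 0.21, limma adjusted p = 0.508), and passed in DESeq2 (0.95, adjusted p = 0.00687). Cyr61, listed under its newer symbol Ccn1, had -0.051 (SE 0.23), and -0.33 to 0.15 over the fits that each left out 1 library. Collagen genes turned on sham library 1, where Col1a1 was at 1973 and Col3a1 at 3207 against 246.2 to 974.1 and 253.4 to 1256 elsewhere. Without that library Col1a1 (1.56, adjusted p = 0.0458) and Col3a1 (1.92, adjusted p = 0.0137) passed as higher in I/R, and with it they had 0.63 and 0.76. In edgeR, with all libraries, Col3a1 had -0.19. The summed level of 10 stellate cell and fibroblast markers, which include these 2 collagens, was also highest there, at 9939 against 2300 to 8217 in the other 5 libraries, and its part in the result was not tested.

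**Figure D4:**
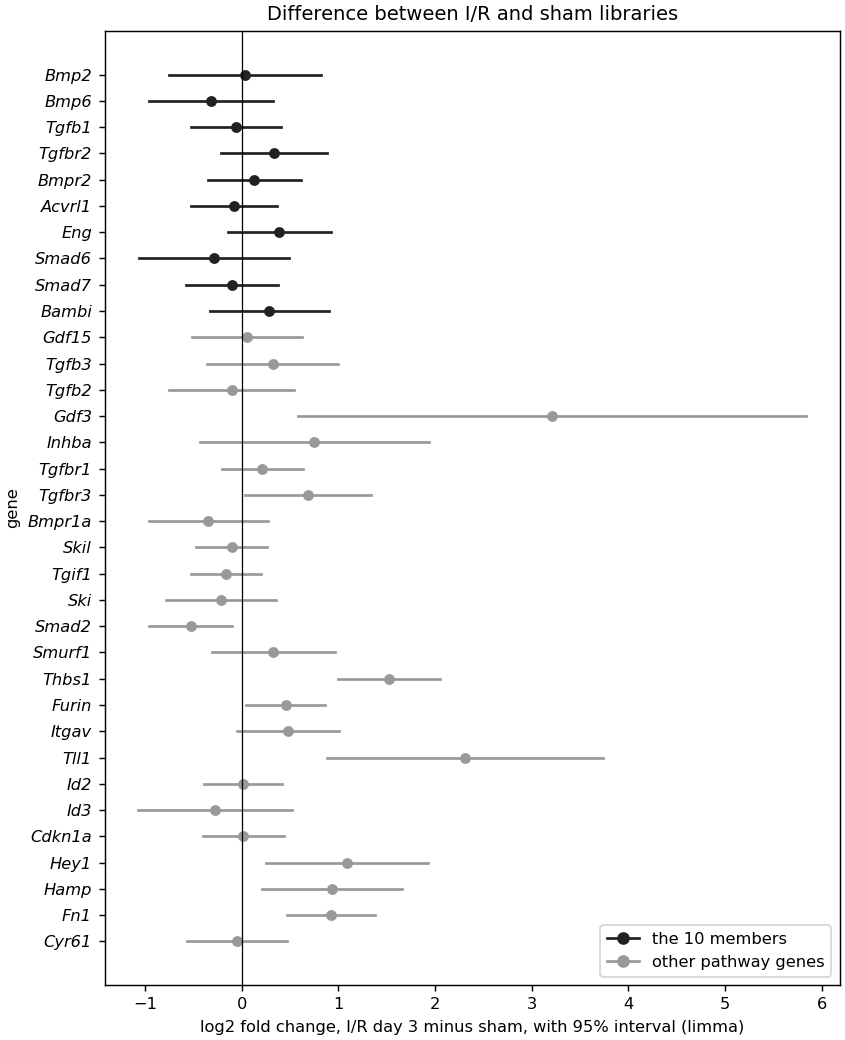
Log2 fold change (I/R day 3 minus sham) with its 95% interval from limma for the 10 genes (black) and the other pathway genes named by rule (grey). All 10 black intervals cross 0, and the grey intervals of Gdf3, Tgfbr3, Smad2, Thbs1, Furin, Tll1, Hey1, Hamp and Fn1 do not, with none past the adjusted threshold.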

How the data were processed

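The authors deposited 1 table of normalised counts, a signal with 1 scaling factor for each library. Named without roles in the submitters' processing notes are HISAT2 2.1.0, Trim Galore 0.5.0, DESeq2 1.22.1, StringTie 1.3.3b and build mm10. The labels' protocols give sorted cells, total RNA and ribosomal RNA depletion, and neither the counting nor a strand setting. Every value was a whole multiple of the lowest non-zero value of its library (100%, tolerance 0.01). The multiples are called recovered counts and may derive from coverage. They summed to 6638130, 15650152 and 8616652 in sham and 6297308, 17086746 and 13323676 in I/R libraries 1, 2 and 3, and a floor of 3 counts covers counting error only.

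Log2(value + 1) of genes with a mean of at least 10 was fitted with limma 3.58.1 (R 4.3.3), with an intensity trend and no covariate, two-sided, and Benjamini-Hochberg adjustment over all 13434 genes (threshold 0.05). This scale understates changes of low genes. edgeR 4.0.16 and DESeq2 1.42.0 on recovered counts were alternatives, and the scripts were tested on simulated data. GENCODE mouse release 21 (GRCm38) gave positions and exon lengths for 21963 of 22027 genes, and RefSeq synonyms matched Ccn1 and Ccn2 to Cyr61 and Ctgf. The members and lists were chosen with earlier results of these data known. Named genes are the 10 members, from each pathway list those past the threshold, the 3 with the highest mean and the 2 with the smallest p, and the 3 nearest profiles of the 2 most variable members. The rule also takes the 2 marker genes with the highest mean from each marker list, of which only Mmrn1, Cd5l, Clec4f, Alb, Plac8, F13a1, Pf4 and Col3a1 are named. Marco, Col1a1, Id1, Gdf2, Bmp10, Ly6g, Ppbp, Gp9, Cd3e and Nkg7 were named after their values were seen.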

Additional observations from a re-analysis of the deposited data

How the results depend on the processing

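In 190 alternative values of the 10 genes 0 passed the threshold (lowest limma adjusted p 0.512, for Smad6 without sham library 1) and 17 had the other sign. Scaling to pan-endothelial markers turned Bmp2 (-0.44), Tgfbr2 (-0.14), Bmpr2 (-0.34), Eng (-0.085) and Bambi (-0.19), quantile normalisation turned Tgfb1 (0.027), and leaving out both shallowest libraries, chosen after seeing the data, turned Bmp2 (-0.14) and Tgfb1 (0.16). Leaving out 1 library gave log2 fold changes of -0.30 to 0.41 for Bmp2, -0.21 to 0.12 for Tgfb1, -0.049 to 0.29 for Bmpr2, -0.22 to 0.075 for Acvrl1 and -0.29 to 0.071 for Smad7. Those of Bmp6 and Smad6 stayed negative and those of Tgfbr2, Eng and Bambi positive without any 1 library. The cause was not tested.

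Over all genes 4 passed, all higher in I/R. The count was 0 without the trend, 0 without both shallowest libraries, 1 with a mean of at least 50, 7 with sample weights, 13 scaled to pan-endothelial markers (6 higher and 7 lower), 1 in edgeR, 42 in DESeq2 (35 higher and 7 lower), and 0 to 22 without 1 library (22 without sham library 1). Among other pathway genes 0 passed, against 1 with sample weights, 2 in DESeq2 and 0 to 3 without 1 library. Neighbouring pairs that kept their order in all libraries numbered 2, and 2 to 4 without 1 library.

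With the replicate block 0 genes passed and the log2 fold changes of the 10 genes were the same. Deviations of same-numbered libraries correlated at -0.020, -0.21 and -0.0014 across genes, so the numbers are not taken to pair the samples.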
